A study of Mus musculus with 10 samples.

Results

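The nitric oxide (NO) and cyclic GMP (cGMP) pathway was described through 10 genes of the mouse aorta, taken by gene symbol from the 55426 genes of the expression table: the NO synthases *Nos1*, *Nos2* and *Nos3*, the soluble guanylate cyclase subunits *Gucy1a1* and *Gucy1b1*, the cGMP-dependent kinase *Prkg1*, and the phosphodiesterases *Pde5a*, *Pde1a*, *Pde1c* and *Pde3a*. RNA-Seq covered 3 control thoracic aorta samples, genotype Prdm16f/f, and 3 Prdm16SMKO thoracic aorta samples, genotype Prdm16f/f, SMMHC-CreERT2, each called an aorta below. Both groups thus carried the floxed *Prdm16* alleles, and the Prdm16SMKO aortas also carried a tamoxifen-inducible Cre driven by the *Myh11* promoter, which is active in smooth muscle. The methods give tamoxifen at 75 mg/kg/day by gavage for 5 days from 8 weeks of age, a washout of 2 weeks and a C57BL/6J background, with the age at dissection, the time of day and any tamoxifen given to the control mice not stated. ChIP-Seq with an anti-Flag antibody came from wild-type primary mouse vascular fibroblasts that had received either a vector or Flag-PRDM16 by lentivirus, for 48 hours, followed by 1 week of selection in puromycin at 2 μg/mL. Each condition had 1 library and so no replicate check.

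NO made from arginine by the synthases diffuses into vascular smooth muscle cells (VSMCs) and binds the heme of soluble guanylate cyclase, a dimer of an α and a β subunit, which then makes cGMP. cGMP activates the cGMP-dependent kinase, which lowers cytosolic calcium and relaxes the vessel. Phosphodiesterases end the signal: PDE5A hydrolyses cGMP and is the target of sildenafil, PDE1A and PDE1C are activated by calcium and calmodulin, and PDE3A hydrolyses cyclic AMP (cAMP) and is inhibited by cGMP, so that it links both messengers.

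Expression was given as TPM, a level per transcript length scaled to the same total in each aorta, which can be set side by side between genes. A gene was tested if its mean over the 6 aortas was at least 0.5 TPM, which held for 9 of the 10 genes (15668 of all genes), and was called at a Benjamini-Hochberg adjusted *P* below 0.05 from limma on log2(TPM + 0.1). *Prdm16* itself was at 56.1, 47.6 and 40.3 TPM in the control aortas and at 23.3, 33.3 and 23.4 TPM in the Prdm16SMKO aortas, which did not overlap, with a mean of 55.6% of control (adjusted *P* = 0.072, limma). Smooth muscle markers were high in every aorta. The list of 10 summed to 21605 to 25259 TPM in control and 14571 to 18861 TPM in Prdm16SMKO aortas. Much of that sum was *Acta2*, the smooth muscle actin, at 11024 to 12433 and 6455 to 8230 TPM. The mean log2(TPM + 0.1) of the list overlapped, at 9.50 to 9.82 in control and 9.21 to 9.60 in Prdm16SMKO aortas. Its difference had a *P* of 0.4 (exact permutation test, 2-sided, where the smallest possible is 0.1). Of the 10 genes, 8 were lower and 2 higher (*Des* and *Myocd*), and 0 were called. An unadjusted *P* below 0.05 in limma was reached by 5, against 12.7% of all tested genes. The part of these markers in the values below was not tested. Endothelial, brown adipocyte and erythrocyte markers were present in all of them (*Ucp1* 15.3 to 127 TPM, *Hbb-bs* 277 to 1615 TPM), and skeletal *Acta1* was at 0.08 to 0.67 TPM. *Tnnt2*, a cardiac troponin on the striated muscle list, was at 16.8 to 33.8 TPM in control and 484 to 503 TPM in Prdm16SMKO aortas, while the other 3 tested markers of that list were not called. One rRNA-like transcript took 20.2% to 28.2% of the TPM and mitochondrial genes 14.7% to 26.5%, and the median log2 difference of all tested genes was −0.12, so that changes were also read after rescaling each aorta by its median ratio, which brought that median to 0.0046. The clock genes *Arntl* (1.70 to 2.71 TPM in control, 0.53 to 0.77 TPM in Prdm16SMKO) and *Ciart* (4.29 to 5.75 TPM and 13.6 to 28.7 TPM), picked after their values were seen, separated the groups too, and the part of circadian phase in the values below was not tested.

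Of the 9 tested pathway genes, none was called, against 168 of 15668 genes overall (1.07% of those tested, 61 higher and 107 lower). After median ratio rescaling, 413 genes were called (2.64%, 200 higher and 213 lower), and *Pde5a* and *Gucy1b1* were among them, both higher in Prdm16SMKO aortas. At an unadjusted *P* below 0.05 in limma, *Pde5a* alone of the 9 passed, against 12.7% of all tested genes. The 3 control and 3 Prdm16SMKO values did not overlap for *Pde5a*, which was higher, and *Pde3a*, which was lower, that is for 2 of 9 genes against 19.0% of all tested genes. On the deposited scale these counts were near the shares of all genes, whereas the 2 calls after rescaling were more than the 2.64% would give 9 genes, and what follows describes individual genes. The authors' own list of differentially expressed genes with PRDM16 promoter peaks holds *Pde5a* and *Pde1a*, both as upregulated. The absence of calls above thus holds only for limma on the deposited TPM.

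**Figure D1:**
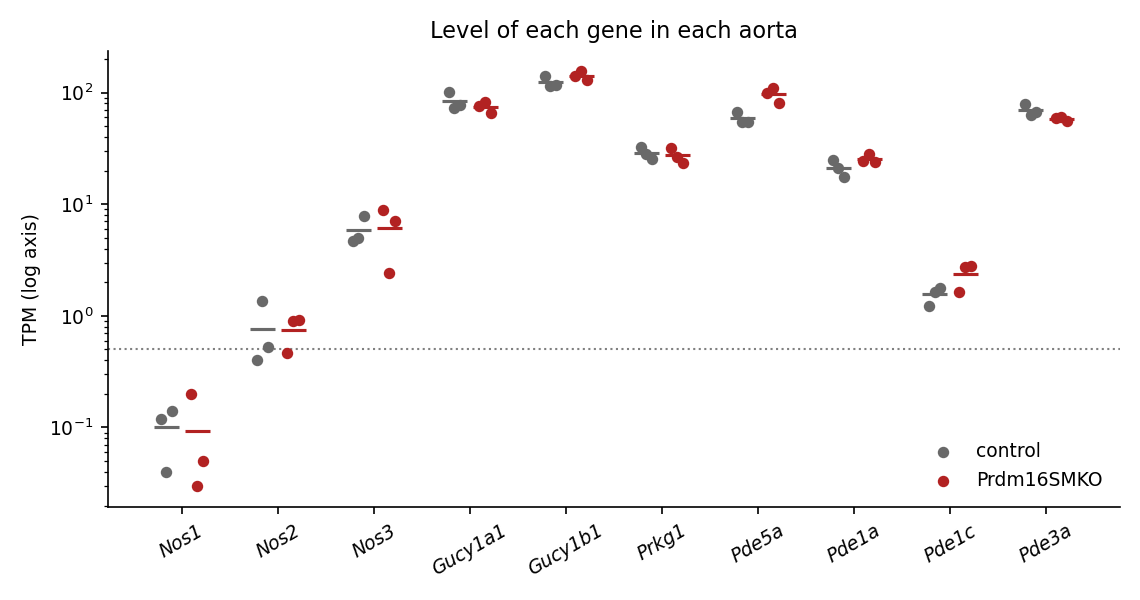
TPM on a log axis for each of the 10 genes, with 1 point per aorta and a bar at the mean of the 3 control (grey) or 3 Prdm16SMKO (red) aortas; the dotted line is the mean of 0.5 TPM needed for a test. *Pde5a* lies at 80.2 to 109 TPM in Prdm16SMKO aortas, above its 54.0 to 66.9 TPM in control aortas, and *Nos1* lies under the line in all 6.

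The cyclase subunits and the phosphodiesterases *Pde3a* and *Pde5a* were the most abundant of the 10 mRNAs, and the NO synthases and *Pde1c* the least. In control aortas *Gucy1b1* came first with a mean of 124 TPM, more than 95.8% of tested genes by its mean over all 6 aortas. It was followed by *Gucy1a1* (83.4 TPM), *Pde3a* (69.5 TPM) and *Pde5a* (58.6 TPM), of which neighbours overlapped between aortas, then by *Prkg1* (28.7 TPM), *Pde1a* (21.1 TPM) and *Nos3* (5.83 TPM), each clear of its neighbours. *Pde1c* (1.55 TPM) and *Nos2* (0.76 TPM) overlapped, and *Nos1* was last at 0.10 TPM. In Prdm16SMKO aortas *Pde5a* (96.3 TPM) stood second, with its range overlapping that of *Gucy1a1* (74.1 TPM) and clear of that of *Gucy1b1* (141 TPM), and *Pde3a* (58.1 TPM) lay under *Gucy1a1* with no overlap.

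*Nos3* (ENSMUSG00000028978, chr5:24364816-24384474, forward strand, positions from RefSeq on build GRCm38 here and below), the endothelial NO synthase, was the main synthase of the 6 aortas. It was at 4.64, 5.0 and 7.86 TPM in control aortas and at 8.94, 2.40 and 7.05 TPM in Prdm16SMKO aortas. The Prdm16SMKO group thus held both the highest and the lowest value, and the groups overlapped entirely (log2 fold change −0.08, 95% confidence interval −1.08 to 0.91, adjusted *P* = 0.96, limma), an interval wide enough to hold a change of either sign. The lowest value, in Prdm16SMKO replicate 2, moved the estimate, which was 0.48 without that aorta (adjusted *P* = 0.41, limma, against 0.41 to 0.996 over all alternatives). That aorta was also the lowest for the endothelial marker list, with 156 TPM summed over its 12 genes against 214 to 279 TPM in the other 5, and for *Pecam1*, an endothelial adhesion molecule, at 28.04 TPM against 35.4 to 70.4 TPM. It was the lowest as well for *Cdh5*, *Tek*, *Egfl7*, *Ptprb* and *Cldn5*. The other markers, *Kdr*, *Emcn*, *Tie1*, *Vwf*, *Esam* and *Erg*, were each lower in another aorta. Taken relative to the mean log2 level of the 12 markers, *Nos3* was at −1.36 ± 0.36 (SD, n = 3) in control and −1.32 ± 0.60 (SD, n = 3) in Prdm16SMKO aortas, a difference of 0.042 (exact permutation test, 2-sided *P* = 1, where the smallest possible is 0.1). In these bulk samples, fewer endothelial cells and less RNA per cell cannot be told apart.

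**Figure D2:**
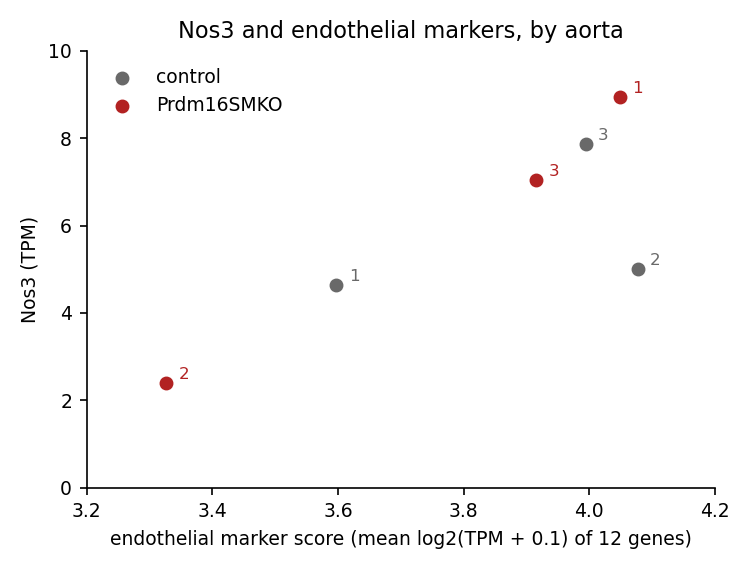
*Nos3* in TPM against the endothelial marker score (mean log2(TPM + 0.1) of 12 genes) in each of the 6 aortas, numbered by replicate, with control in grey and Prdm16SMKO in red. Prdm16SMKO replicate 2 is lowest on both axes, at 2.40 TPM and a score of 3.33, and the groups mix.

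*Nos2* (ENSMUSG00000020826, chr11:78920787-78960226, forward strand), the inducible synthase of inflamed tissue, was at 0.40, 1.35 and 0.53 TPM in control aortas and 0.46, 0.89 and 0.91 TPM in Prdm16SMKO aortas. Its groups overlapped at this low level (log2 fold change 0.10, 95% confidence interval −1.17 to 1.36, adjusted *P* = 0.97, limma). *Nos1* (ENSMUSG00000029361, chr5:117866839-117958840, forward strand), the neuronal synthase, was at 0.04 to 0.14 TPM in control and 0.03 to 0.20 TPM in Prdm16SMKO aortas and was not tested.

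The subunits of soluble guanylate cyclase, which lie 17.7 kb apart on chromosome 3, had a lower α1 to β1 ratio in every Prdm16SMKO aorta. *Gucy1a1* (α1; ENSMUSG00000033910, chr3:82092427-82145946, reverse strand) was at 100.5, 72.7 and 77.1 TPM in control aortas and at 75.2, 82.1 and 65.1 TPM in Prdm16SMKO aortas, which overlapped (log2 fold change −0.16, 95% confidence interval −0.51 to 0.18, adjusted *P* = 0.70, limma). *Gucy1b1* (β1; ENSMUSG00000028005, chr3:82032004-82074711, reverse strand) was at 139, 116 and 117 TPM in control and at 140.0, 154 and 129 TPM in Prdm16SMKO aortas, where only control replicate 1 reached into the other group (log2 fold change 0.19, 95% confidence interval −0.09 to 0.46, adjusted *P* = 0.56, limma). That aorta also had the highest median ratio of the 6, and after rescaling the *Gucy1b1* groups parted, at 113 to 121 and 145 to 147 rescaled TPM, with a log2 fold change of 0.31 (95% confidence interval 0.17 to 0.45, adjusted *P* = 0.043, limma). The *Gucy1b1* call therefore depended on the scaling, with adjusted *P* values of 0.040 to 0.81 over all alternatives in limma. After the same rescaling the *Gucy1a1* groups still overlapped, at 71.3 to 86.5 and 73.4 to 79.2 rescaled TPM (log2 fold change −0.04, adjusted *P* = 0.88, limma).

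The ratio of the subunits within an aorta does not depend on the scaling. It was 0.721, 0.629 and 0.658 in control aortas and 0.537, 0.531 and 0.506 in Prdm16SMKO aortas, so that every Prdm16SMKO aorta lay under every control aorta. The mean ratio was 0.669 ± 0.047 (SD, n = 3) in control and 0.525 ± 0.016 (SD, n = 3) in Prdm16SMKO aortas, a difference of −0.35 on the log2 scale (exact permutation test, 2-sided *P* = 0.1, the smallest that 3 against 3 allows). With any 1 aorta left out, the difference ranged from −0.39 to −0.29. The ratio does not say which subunit differed, neither of which was called as deposited, and a ratio of TPM is not the stoichiometry of the protein.

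*Prkg1* (ENSMUSG00000052920, chr19:30564487-31765268, reverse strand), the kinase that carries the cGMP signal in VSMCs, was at 32.6, 27.9 and 25.6 TPM in control and at 31.8, 26.7 and 23.6 TPM in Prdm16SMKO aortas. The values interleaved (log2 fold change −0.07, 95% confidence interval −0.42 to 0.28, adjusted *P* = 0.89, limma), and the sign turned after median ratio rescaling (0.05).

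**Figure D3:**
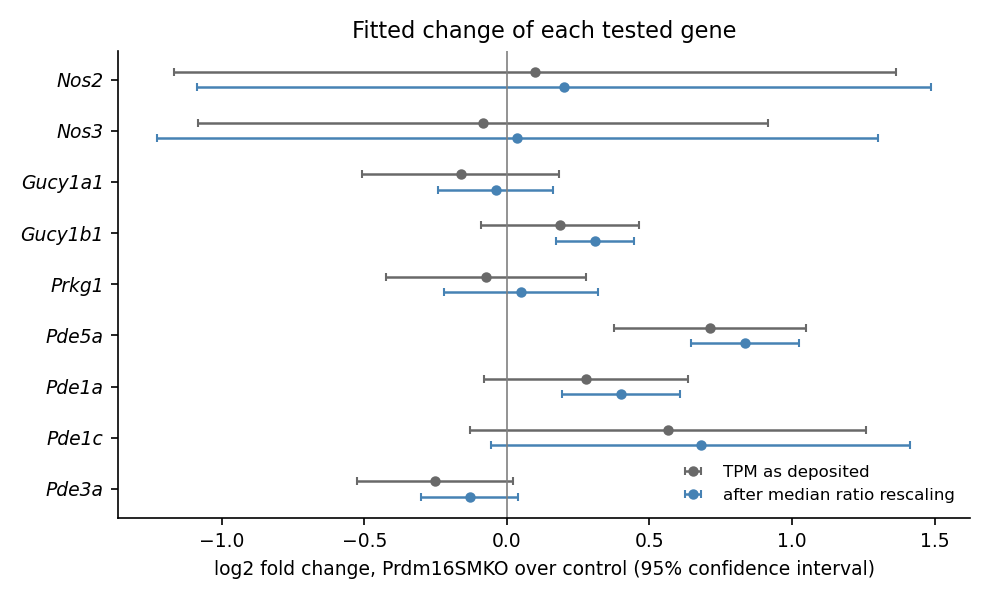
Log2 fold change of Prdm16SMKO over control (x axis) with its 95% confidence interval from limma for the 9 tested genes, for TPM as deposited (grey) and after median ratio rescaling (blue). The *Pde5a* interval lies above 0 in both, from 0.38 to 1.05 and from 0.64 to 1.02, and the deposited intervals of *Nos2* and *Nos3* run from −1.17 to 1.36 and from −1.08 to 0.91.

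*Pde5a* (ENSMUSG00000053965, chr3:122729158-122859374, forward strand), the cGMP-hydrolysing phosphodiesterase, had the largest log2 fold change and the smallest *P* value of the 9 tested genes. It was at 66.9, 54.0 and 54.8 TPM in control aortas and at 99.8, 109 and 80.2 TPM in Prdm16SMKO aortas. The lowest Prdm16SMKO aorta lay above the highest control aorta, and the means were 58.6 ± 7.25 and 96.3 ± 14.7 TPM (SD, n = 3 each), a ratio of 1.64. The log2 fold change was 0.71 ± 0.15 (SE), with an adjusted *P* of 0.068 in limma that missed the threshold, and *Pde5a* was 226th of 15668 genes by its *P* value. After median ratio rescaling it was 0.83 ± 0.080 (SE, adjusted *P* = 0.0042, limma) and the groups lay at 53.0 to 57.6 and 90.4 to 105 rescaled TPM. As deposited, *Pde5a* passed the threshold without Prdm16SMKO replicate 3 (0.84, adjusted *P* = 0.044, limma), and the other 5 aortas left out in turn gave up to an adjusted *P* of 0.22, with log2 fold changes of 0.62 to 0.84 over all 6. Over all alternatives the adjusted *P* in limma ran from 0.0042 to 0.23 and the direction held.

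*Pde3a* (ENSMUSG00000041741, chr6:141249269-141506862, forward strand), the cGMP-inhibited phosphodiesterase, lay on the other side. It was at 78.4, 63.2 and 67.0 TPM in control and at 58.8, 60.3 and 55.2 TPM in Prdm16SMKO aortas, lower in all of the latter, and the means were 69.5 ± 7.93 and 58.1 ± 2.63 TPM (SD, n = 3 each). The log2 fold change of −0.25 ± 0.12 (SE) did not pass (adjusted *P* = 0.44, limma), and after rescaling (−0.13, adjusted *P* = 0.45, limma, with 0.37 to 0.70 over all alternatives) its groups overlapped.

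The calcium-dependent enzymes were higher on average and were not called. *Pde1a* (ENSMUSG00000059173, chr2:79834453-80196522, reverse strand) was at 25.0, 20.96 and 17.4 TPM in control and at 24.4, 27.95 and 23.9 TPM in Prdm16SMKO aortas, with control replicate 1 inside the Prdm16SMKO range (log2 fold change 0.28, 95% confidence interval −0.08 to 0.64, adjusted *P* = 0.50, limma). After rescaling, its groups no longer overlapped (0.40, adjusted *P* = 0.071, limma, the lowest of all alternatives, which reached 0.73), so that *Gucy1b1*, *Pde5a* and *Pde1a* were then the 3 of 9 genes with separate groups, against 21.7% of all tested genes. *Pde1c* (ENSMUSG00000004347, chr6:56069798-56652510, reverse strand) was at 1.23, 1.65 and 1.78 TPM in control and at 1.63, 2.71 and 2.81 TPM in Prdm16SMKO aortas, which overlapped (log2 fold change 0.56, 95% confidence interval −0.13 to 1.26, adjusted *P* = 0.48, limma).

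Within an aorta the makeup of these 4 phosphodiesterase mRNAs differed between the groups, a measure added after the values were seen and given with no test. *Pde5a* made up 39.0%, 38.6% and 38.8% of their summed TPM in control aortas and 54.0%, 54.5% and 49.5% in Prdm16SMKO aortas. *Pde3a* was the larger share in each control aorta (45.2% to 47.5%) and the smaller in each Prdm16SMKO aorta (30.2% to 34.0%). *Pde1a* stayed at 12.4% to 14.99% and *Pde1c* at 0.72% to 1.73% over all 6.

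**Figure D4:**
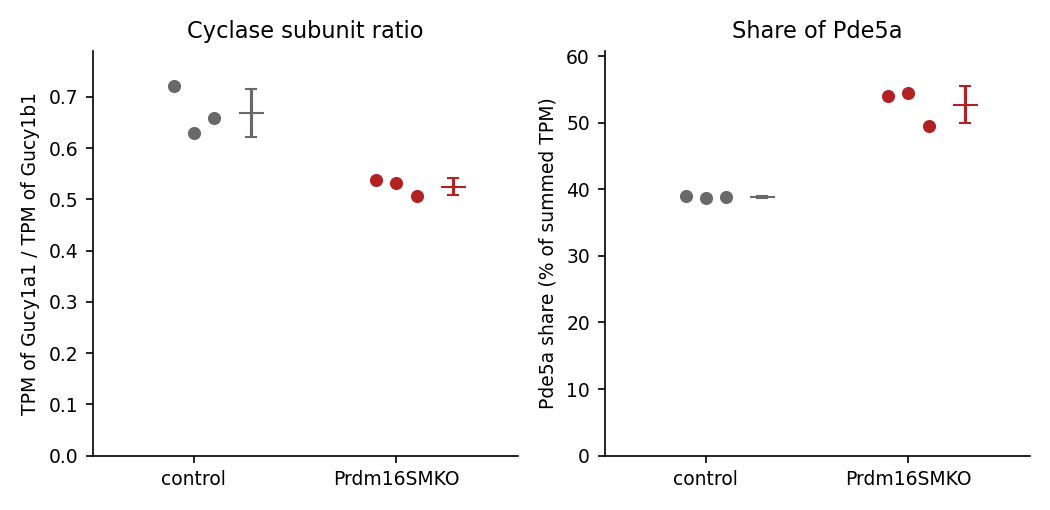
Left, TPM of *Gucy1a1* over TPM of *Gucy1b1*; right, *Pde5a* as a percentage of the summed TPM of *Pde5a*, *Pde1a*, *Pde1c* and *Pde3a*; points are aortas and bars show the mean ± SD of 3. The subunit ratio is 0.506 to 0.537 in Prdm16SMKO and 0.629 to 0.721 in control aortas, and the *Pde5a* share 49.5% to 54.5% and 38.6% to 39.0%.

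The genes whose log2 levels followed *Pde5a* most closely over the 6 aortas were *Tmem252* (Pearson *r* = 0.996), *Zmat3* (*r* = 0.993) and *Trnp1* (*r* = 0.993), and those closest to *Pde3a* were *Cacnb2*, a calcium channel subunit (*r* = 0.997), *Olfml2a* (*r* = 0.997) and *Nf1*, a RAS GTPase-activating protein (*r* = 0.997). With 6 aortas in 2 groups that share scaling and group, these are descriptions. *Tmem252* was at 68.6 to 81.4 TPM in control and 89.6 to 116 TPM in Prdm16SMKO aortas, and none of the 6 genes was called (adjusted *P* of 0.15 to 0.49, limma).

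The wider pathway was read from 4 lists with 84 genes, of which 61 were tested and 2 called, both lower in Prdm16SMKO aortas, against 1.07% of all tested genes. The list of NO supply includes, among others, genes that provide arginine and cofactors or bind the synthases. Among its 19 tested genes, 0 were called higher and 1 lower, with a median log2 fold change of −0.27 against −0.12 for all genes. Of the 19, 16 were lower and 3 higher on average. The groups did not overlap for 9 (19.0% of all tested genes). An unadjusted *P* below 0.05 in limma was also reached by 9 (12.7% of all tested genes). The gene called was *Nos1ap*, an adaptor of the neuronal synthase, at 34.4, 23.4 and 28.7 TPM in control and 13.8, 13.6 and 8.97 TPM in Prdm16SMKO aortas. Its groups lay well apart (log2 fold change −1.25 ± 0.21 SE, adjusted *P* = 0.030, limma), although the call was lost without control replicate 1, control replicate 3 or Prdm16SMKO replicate 2 (adjusted *P* up to 0.11), without the limma trend (0.14) or with no TPM filter (0.074). The caveolar scaffold *Cav1*, which binds NOS3, was at 605 TPM over the 6 aortas with a log2 fold change of −0.44 that did not pass (adjusted *P* = 0.16, limma).

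Of the 21 tested targets of cGMP and its kinase, 0 were called higher and 1 lower, with a median log2 fold change of −0.06. *Hspb6*, a small heat shock protein phosphorylated by cyclic nucleotide-dependent kinases in smooth muscle, fell from 242, 207 and 195 TPM in control to 83.0, 102 and 77.1 TPM in Prdm16SMKO aortas. The lowest control aorta lay far above the highest Prdm16SMKO aorta (log2 fold change −1.30 ± 0.14 SE, adjusted *P* = 0.0044, limma), and of the alternatives run only that without the limma trend lost the call (adjusted *P* = 0.060). The most abundant of the list, the smooth muscle LIM protein *Csrp2*, was at 1725 to 1786 TPM in control and 2198 to 2496 TPM in Prdm16SMKO aortas, which did not overlap (log2 fold change 0.42, adjusted *P* = 0.11, limma). The myosin phosphatase subunit *Ppp1r12a* had a log2 fold change of 0.02 (adjusted *P* = 0.98, limma).

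Neither of the other lists held a called gene in limma on the deposited TPM. The authors' own list of differentially expressed genes with PRDM16 promoter peaks holds genes of each pathway list. *Csrp2*, *Npr3*, *Pde1b*, *Pde4dip* and *Pde7a* are there as upregulated, and *Nos1ap*, *Cav1*, *Ppp1cb*, *Furin* and *Pde4b* as downregulated. Of the 6 tested guanylate cyclases and natriuretic peptide genes, 4 had groups that did not overlap (19.0% of all tested genes did so), and the most abundant was the atrial natriuretic peptide receptor *Npr1* at 145, 122 and 127 TPM in control and 103, 118 and 79.5 TPM in Prdm16SMKO aortas (log2 fold change −0.40, adjusted *P* = 0.32, limma). *Npr2*, the receptor of C-type natriuretic peptide, had a log2 fold change of 0.01, and the clearance receptor *Npr3* one of 0.46 (adjusted *P* = 0.44, limma). Of the 15 tested genes on the list of other phosphodiesterases and their partners, *Pde4dip*, a phosphodiesterase-binding scaffold and the most abundant, was at 130 to 167 TPM in control and 150 to 201 TPM in Prdm16SMKO aortas (adjusted *P* = 0.47, limma) and *Pde4b*, a cAMP-specific enzyme, at 20.3 to 23.3 and 9.27 to 14.9 TPM (adjusted *P* = 0.077, limma). On that list the groups did not overlap for 5 of the 15 genes (19.0% of all tested genes). An unadjusted *P* below 0.05 in limma was reached by 3 (12.7% of all tested genes). *Pde1b*, the third calcium-dependent enzyme, singled out after its values were seen, was at 0.85 to 1.75 TPM in control and 3.04 to 3.27 TPM in Prdm16SMKO aortas (adjusted *P* = 0.088, limma). After median ratio rescaling 6 of the 61 genes were called, against 2.64% of all tested genes, with *Kcnmb1*, *Pde4b*, *Hspb6* and *Nos1ap* lower and *Csrp2* and *Pde4dip* higher.

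The ChIP-Seq lists held 11271 peaks for Flag-PRDM16 and 67 for the vector, with no vector peak within 100 kb of any of the 10 genes. A peak with its centre within 2 kb of a transcription start site (TSS) of curated RefSeq transcripts was found at 5 of the 10 genes, *Nos2*, *Prkg1*, *Pde5a*, *Pde1a* and *Pde3a*, against 43.8% of the 12551 tested genes that matched such a transcript. A peak in the gene or within 20 kb of it was found at 8 of 10 genes against 63.3%. Peaks in and around the 10 genes numbered 4.40 per Mb and those of all tested genes 11.95 per Mb. These windows summed to 3.18 Mb for the 10 genes, with *Prkg1* at 1.24 Mb and *Pde1c* at 0.62 Mb, and to 1197 Mb for the 12551 genes. The part of gene length in the counts and the density was not tested. The counts of 5 and 8 genes were near the background, the density was lower, and the peaks come from fibroblasts with added PRDM16 and not from the aortas above.

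The *Pde5a* peak (GRCm38 chr3:122729610-122730439) had its centre 866 bp into the gene, in an intron, with a 4.29-fold enrichment at the summit, higher than that of 24.4% of all peaks, and −log10 q = 4.55. The *Pde3a* peak (chr6:141249287-141250591) was the strongest of the 6 promoter peaks, with a centre 670 bp past the TSS in coding sequence, a length of 1305 bp, a 7.65-fold enrichment, higher than that of 88.1% of peaks, and −log10 q = 18.0. The sequences at their summits are shown because these genes had the smallest *P* values of the 10, and those of *Prkg1* and *Nos2* because their peaks sat on a start site. All are from the forward strand of RefSeq GRCm38 without UTR bases, in lower case, and capitals mark GC boxes (GGGCGG on either strand).
Pde5a intron, chr3:122730029-122730328: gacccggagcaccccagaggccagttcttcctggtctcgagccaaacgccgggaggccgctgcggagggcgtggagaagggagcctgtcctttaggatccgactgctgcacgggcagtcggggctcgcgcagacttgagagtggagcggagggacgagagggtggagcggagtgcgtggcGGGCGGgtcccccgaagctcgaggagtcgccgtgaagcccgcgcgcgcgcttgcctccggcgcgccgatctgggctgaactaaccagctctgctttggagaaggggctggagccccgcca
Pde3a coding exon, chr6:141249948-141250247: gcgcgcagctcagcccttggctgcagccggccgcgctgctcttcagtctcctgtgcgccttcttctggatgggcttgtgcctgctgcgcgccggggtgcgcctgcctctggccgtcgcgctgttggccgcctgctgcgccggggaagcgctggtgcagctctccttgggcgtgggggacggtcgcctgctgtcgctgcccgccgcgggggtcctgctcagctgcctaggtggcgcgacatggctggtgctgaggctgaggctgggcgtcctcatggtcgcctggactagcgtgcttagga
Prkg1 start of the β transcript, chr19:31664404-31664703: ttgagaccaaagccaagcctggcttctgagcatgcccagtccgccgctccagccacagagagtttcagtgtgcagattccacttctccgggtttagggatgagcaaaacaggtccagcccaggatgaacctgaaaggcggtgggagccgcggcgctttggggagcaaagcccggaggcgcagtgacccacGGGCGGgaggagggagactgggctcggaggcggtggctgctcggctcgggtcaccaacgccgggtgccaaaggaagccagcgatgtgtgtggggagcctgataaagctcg
Nos2 internal start, chr11:78925111-78925290: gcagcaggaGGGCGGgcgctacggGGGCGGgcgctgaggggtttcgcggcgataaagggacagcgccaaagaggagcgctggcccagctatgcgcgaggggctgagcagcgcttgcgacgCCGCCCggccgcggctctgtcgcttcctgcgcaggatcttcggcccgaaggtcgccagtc

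*Prkg1* had a peak at the start of each of its isoforms. The peak at the β start (chr19:31663788-31665108, 1321 bp long) was centred 78 bp upstream of the TSS with a 5.80-fold enrichment, and that at the α start (chr19:31764577-31765134) 178 bp downstream with a 4.92-fold enrichment. Further peaks lay 2.22 kb past the α start (5.63-fold) and deep in an intron (5.58-fold), and the strongest (8.37-fold) lay 11.4 kb past the end of the gene, with *Dkk1* as the nearest start site at 3452 bp. *Prkg1* was thus the gene with the most peaks of the 10, at 5 within 20 kb, and the longest at 1201 kb.

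The *Nos2* peak (chr11:78925096-78925395, 6.68-fold) was centred 46 bp upstream of a TSS that lies inside the gene and starts a further curated transcript, and the *Pde1a* peak (chr2:80038323-80038599, 4.57-fold) 441 bp past 1 of its 5 start sites. *Nos3* had no promoter peak, with peaks 3.34 kb and 19.9 kb past its end and, outside the 20 kb, a 15.1-fold peak at 20.5 kb that was higher than 99.7% of all peaks. The nearest start site was that of *Atg9b* for the first (4023 bp) and of *Asic3* for the others (8895 and 8118 bp). The *Nos1* peak lay 18.0 kb past the gene, 312 bp from the TSS of *Fbxo21*. The *Pde1c* peak lay inside the span of predicted transcripts only, 199 kb from the nearest curated start.

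*Gucy1a1* and *Gucy1b1* had no peak in reach. The nearest lay 982 kb from *Gucy1a1* on one side and 995 kb from *Gucy1b1* on the other, so that both sat in an interval of 2091 kb with no peak. The median gap between a tested gene and its nearest peak was 2.71 kb, and 1.52% of tested genes had a gap as large as that of *Gucy1a1*. No peak called in these fibroblasts does not show that PRDM16 is absent there in VSMCs.

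**Figure D5:**
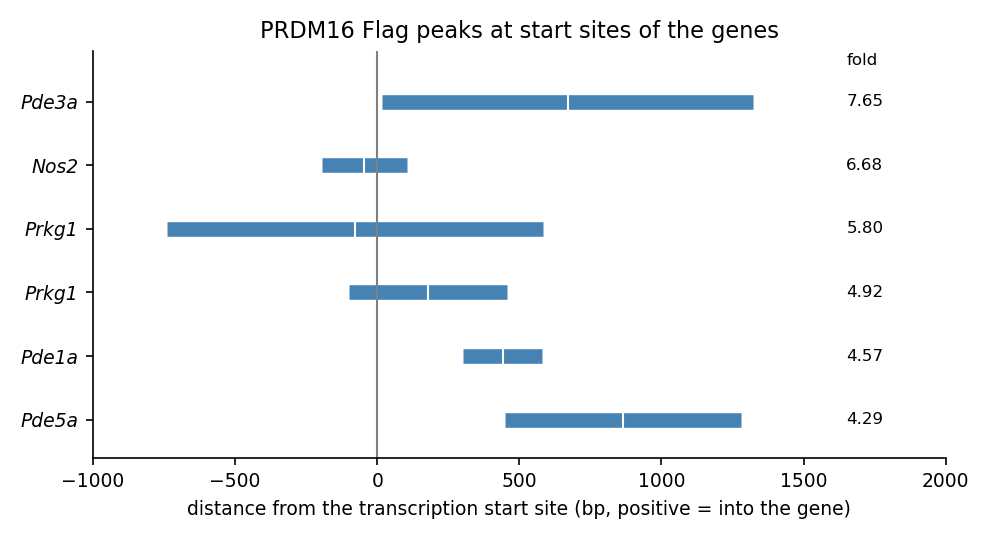
The 6 Flag-PRDM16 peaks at start sites of *Pde3a*, *Nos2*, *Prkg1* (β start above, α start below), *Pde1a* and *Pde5a*, as bars over the distance from the TSS in bp (positive into the gene), with white marks at the peak centres and the fold enrichment at the right. Centres of 4 of the 6 lie past the TSS, and the bars of *Pde3a*, *Pde1a* and *Pde5a* do not reach it.

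The summit windows of 300 bases held a GC box at 4 of the 6 promoter peaks of these genes, against 61.9% of the 6064 promoter peak windows in all. The *Nos2* window held 3, while those of *Pde3a* and *Pde1a* held none. The GATA core AGATAA (3.03% of all windows), the E-box CACGTG of the clock factors (5.46%) and the cAMP response element TGACGTCA (0.511%), searched on both strands, were in none of the 6, which says only that these letters were not in these windows. GC content was 46.7% to 73.3% in the 6 windows and 69.3% at the median of all.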

How the data were processed

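The authors deposited RNA-Seq values as TPM, 1 column per aorta, from poly(A)-selected libraries of 151 bp read pairs. The submitters' processing notes name cutadapt 2.3, STAR 2.7.8a, RSEM 1.3.3, Bowtie2 2.3.4.1, MACS2 and the builds GRCm38 and mm10. TPM hold no sequencing depth, which stays unknown for each aorta, and no count test was run. For ChIP-Seq the authors deposited MACS2 peaks (q threshold 0.01, paired-end mode, human genome size), with columns for the ratio of summit signal to local background (fold enrichment), for −log10 p and for −log10 q. The IgG libraries were not used here.

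Samples were grouped by genotype label. Genes whose TPM averaged 0.5 or more were tested with limma 3.58.1 in R 4.3.3 (trend) on log2(TPM + 0.1), on which scale fold changes of low genes are understated, with Benjamini-Hochberg adjustment over 15668 genes and a threshold of 0.05. The procedure was run on simulated data with independent genes, known changes and no shift in scaling between aortas. That run therefore does not bear on how the calls depended on scaling. Ratios were compared by exact permutation tests in SciPy 1.17.1. The labels do not say that replicates came from separate mice, so P values measure only the spread between these samples, which may be technical. Aortas were not treated as paired by replicate number. Deviations from the group means were barely correlated between same-numbered aortas (−0.025, −0.070 and −0.0090), which cannot show that they were unpaired.

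Peaks were placed against RefSeq GRCm38, to which 80.1% of tested genes matched by Entrez identifier and curated transcript. Genes, lists and tests were chosen with earlier results of these data known. All 10 genes are named, as are list genes that passed, otherwise up to 4 per list among those of highest mean TPM, and the 3 genes closest in pattern to the 2 members of smallest P. *Arntl*, *Ciart* and *Pde1b*, and the genes named after rescaling or from the authors' list, were chosen after their values were seen.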

Additional observations from a re-analysis of the deposited data

How the results depend on the processing

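Of 134 alternative values of the 9 fold changes, 114 kept their direction and side of the threshold. The number of genes called, 168 as deposited, was 48 without the trend in limma, 110 with no TPM filter, 413 after median ratio rescaling, 392 after quantile normalization and 366 after rescaling without rRNA-like and mitochondrial genes (an alternative chosen after seeing the data), and 91 to 141 with 1 aorta left out. It was 91 without control replicate 1, 99 without control replicate 2, 93 without control replicate 3 and 105 without Prdm16SMKO replicate 1. Of the pathway members 2 were called after median ratio rescaling and 2 after quantile normalization (*Gucy1b1* and *Pde5a*), 1 after rescaling without rRNA-like and mitochondrial genes (*Pde5a*), and 0 to 1 with 1 aorta left out. List genes called, 2 as deposited, were 0 without the trend, 1 with no TPM filter, 6 after median ratio rescaling, 5 after quantile normalization, 5 without rRNA-like and mitochondrial genes, and 1 to 2 with 1 aorta left out (1 without control replicate 1, control replicate 3 or Prdm16SMKO replicate 2). The *Nos3* log2 fold change turned to 0.037 after median ratio rescaling, 0.014 after quantile normalization and 0.033 without rRNA-like and mitochondrial genes, and ran from −0.45 to 0.48 with 1 aorta left out. That of *Prkg1* turned to 0.050, 0.049 and 0.049 under the same 3 scalings and ran from −0.19 to 0.030, and that of *Nos2* ran from −0.21 to 0.55. The cause was not tested. A replicate block gave 184 genes called, 0 members and 2 list genes, with *Pde5a* at an adjusted *P* of 0.060 in limma, and changed no call of a member or list gene. The subunit ratio, the *Nos3* measure and the *Pde5a* share moved by less than the larger group SD in every alternative run. With 1 aorta left out this was fixed in advance, because dropping 1 of 3 values cannot shift a mean by their SD. In those runs the subunit difference ranged from −0.39 to −0.29 and the *Nos3* difference from −0.18 to 0.38. The share difference ranged from 12.9 to 15.4 percentage points. Rescaling and the replicate block cannot change the ratio or the share, so only leaving out an aorta could move them. The *Nos3* difference changed sign among those runs. Promoter peaks were found at 2 of 10 genes (*Nos2* and *Prkg1*) when the window ran from 1 kb upstream to 100 bp downstream, against 14% of tested genes, and at 3 (with *Pde3a*) at a q of at most 1e-05, against 29.3%. Depth is unknown for the TPM, and changes in *Nos2* and *Nos1* at these levels could not be resolved.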
